A study of Rattus norvegicus with 30 samples.

Results

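Gene expression was compared between rat cortical neuron cultures transduced with αSyn 3K and cultures transduced with empty vector (EV), 12 d after transduction. The comparison used the 5 αSyn 3K and 5 EV libraries labelled day 12, 10 of the 30 libraries of the series. Genes entered when at least 5 of the 30 libraries reached a normalized count of 10, and the 2 vector sequences were left out. That rule kept 12911 of the 20634 genes with any read. The other 20 libraries were made in the same way at 6 and 19 d. Cultures came from the cortex of Sprague Dawley rat embryos and received AAV9, an adeno-associated virus serotype that enters neurons and astrocytes, on DIV 5. The αSyn 3K virus carried human αSyn with 3 glutamate-to-lysine substitutions under the CAG promoter, which is active in many cell types, so expression was not confined to neurons by design. EV was the same kind of virus without a cDNA insert, and both groups were exposed to virus, so no untreated or wild-type αSyn culture entered the comparison. The library titles of both groups also carry the tag PBS. The labels do not state whether replicates were separate cultures or embryo pools, so the p-values measure the spread between these libraries, which may in part be technical.

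αSyn is an abundant presynaptic protein that binds vesicle and other membranes rich in acidic phospholipids, and it is the main protein of Lewy bodies in Parkinson disease. The 3K substitutions lie in its membrane-binding repeats and increase its association with membranes, and this form is toxic to cultured neurons. Membrane composition depends on fatty acid desaturation by the Scd enzymes, on acyl-CoA synthetases, and on acyltransferases that remodel phospholipids, and the transcription of many of these enzymes is under the control of SREBP factors. In primary cortical cultures much of the lipid and amino acid synthesis is carried out by astrocytes, which grow beside the neurons, while neurons respond to depolarisation with a wave of immediate early genes such as Fos and later targets such as Bdnf.

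The day 12 libraries held between 5291615 and 6840758 reads over genes in EV and between 5415695 and 6647876 in αSyn 3K. Each had reads for 15274 to 15627 genes. The vector sequences followed the labels in all 10 libraries. The αSyn 3K transgene had normalized counts of 8080 to 9302 in the αSyn 3K libraries and 133 to 179.8 in the EV libraries, and the EV transcript had 2577 to 2830 in EV and 30.3 to 62.1 in αSyn 3K (exact permutation test for each, two-sided, p = 0.00794, the smallest that 252 labelings of 5 against 5 allow). The origin of the low counts of each vector in the other group was not tested. The cell type labelled was present: summed normalized counts of 20 pan-neuronal markers were 65416 to 68121 in EV and 63742 to 66169 in αSyn 3K. Astrocyte markers were also abundant, and of the microglial markers Cx3cr1, C1qa, C1qb and C1qc had no reads in any of the 10 libraries. The share of reads on mitochondrially encoded protein-coding genes was 1.65% to 1.90% in EV and 1.75% to 2.10% in αSyn 3K (exact permutation p = 0.0556). Its part in the results below was not tested. The share on all mitochondrial sequences was 3.39% to 4.37% in EV and 3.81% to 4.64% in αSyn 3K (exact permutation p = 0.246). A fit with this wider share as a covariate called 30 genes higher and 40 lower.

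In αSyn 3K relative to EV, 23 genes rose and 33 fell at day 12 (limma on log2 of the normalized count plus 1, Benjamini-Hochberg adjusted p under 0.05 over 12911 genes). This was 0.178% of the genes tested in the higher direction and 0.256% in the lower. At an unadjusted p under 0.05 there were 481 genes higher and 582 lower, and the median log2 fold change over all genes was 0.0024. Most changes were small. The median log2 fold change was 0.45 for the genes that rose and -0.27 for those that fell, and 8 of 56 changed by at least 1.5-fold. The genes that fell were expressed at a higher level, with a median of 1579 normalized counts over the 10 libraries, than those that rose, with 256, and the median over all genes tested was 158.6. Every library of one group lay beyond every library of the other for 20 of the 23 genes that rose and 28 of the 33 that fell. Over all genes tested, 1.05% had all αSyn 3K libraries above all EV libraries and 1.57% had them all below, so complete separation was common among the called genes by their choice.

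**Figure D1:**
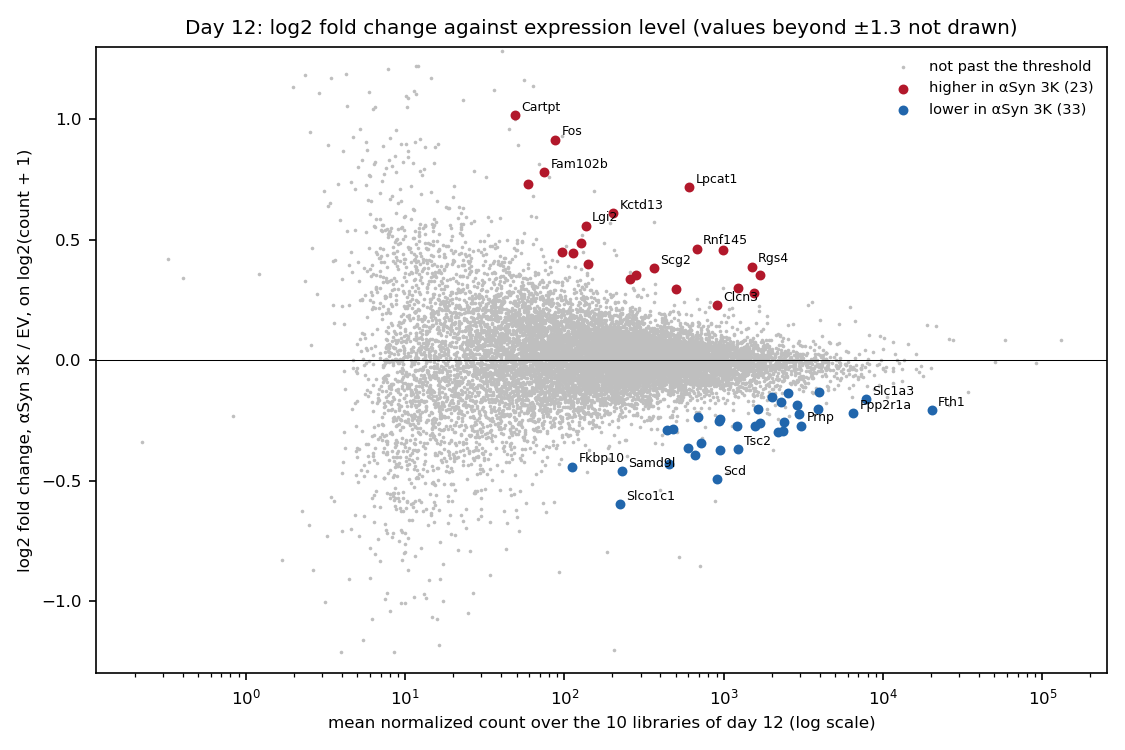
Log2 fold change of αSyn 3K over EV at day 12 (vertical axis, on log2 of the normalized count plus 1) against the mean normalized count over the 10 libraries (horizontal axis, log scale), one point per gene tested. The 23 genes that rose are in red and the 33 that fell in blue; the genes that fell lie at higher expression levels and at smaller fold changes, and Gdf1, at 5.41, lies beyond the axis.

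The calls differed in how well they held when a single library was left out. Leaving out a library also leaves fewer samples, so a call near the threshold can be lost without resting on that library. Ap2a2, for example, lost the call in all 10 fits while its log2 fold change stayed between -0.14 and -0.12. When each of the 10 libraries was left out in turn, 33 of the 56 genes stayed past the threshold in all 10 fits, and the other 23 lost the call in at least 1. These 33 genes, 17 higher and 16 lower, were also called under each of the other alternatives run. The 23 that lost the call somewhere were Gdf1, Rbak, Nfil3, Spry1, Scg2 and Clcn3 among the genes that rose, and Scd, Samd9l, Fkbp10, Mt2A, Vcam1, Mat2a, Ndrg2, Me1, Asns, Deaf1, Fth1, Usp22, Fads1, Slc1a3, Usp5, Bap1 and Ap2a2 among those that fell. Without αSyn 3K replicate 2 the counts were 18 higher and 18 lower, without αSyn 3K replicate 3 they were 22 and 21, and without EV replicate 2 they were 18 and 19. Count-based fits on the recovered reads called 53 of the 56 genes with edgeR and 55 with DESeq2.

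**Figure D2:**
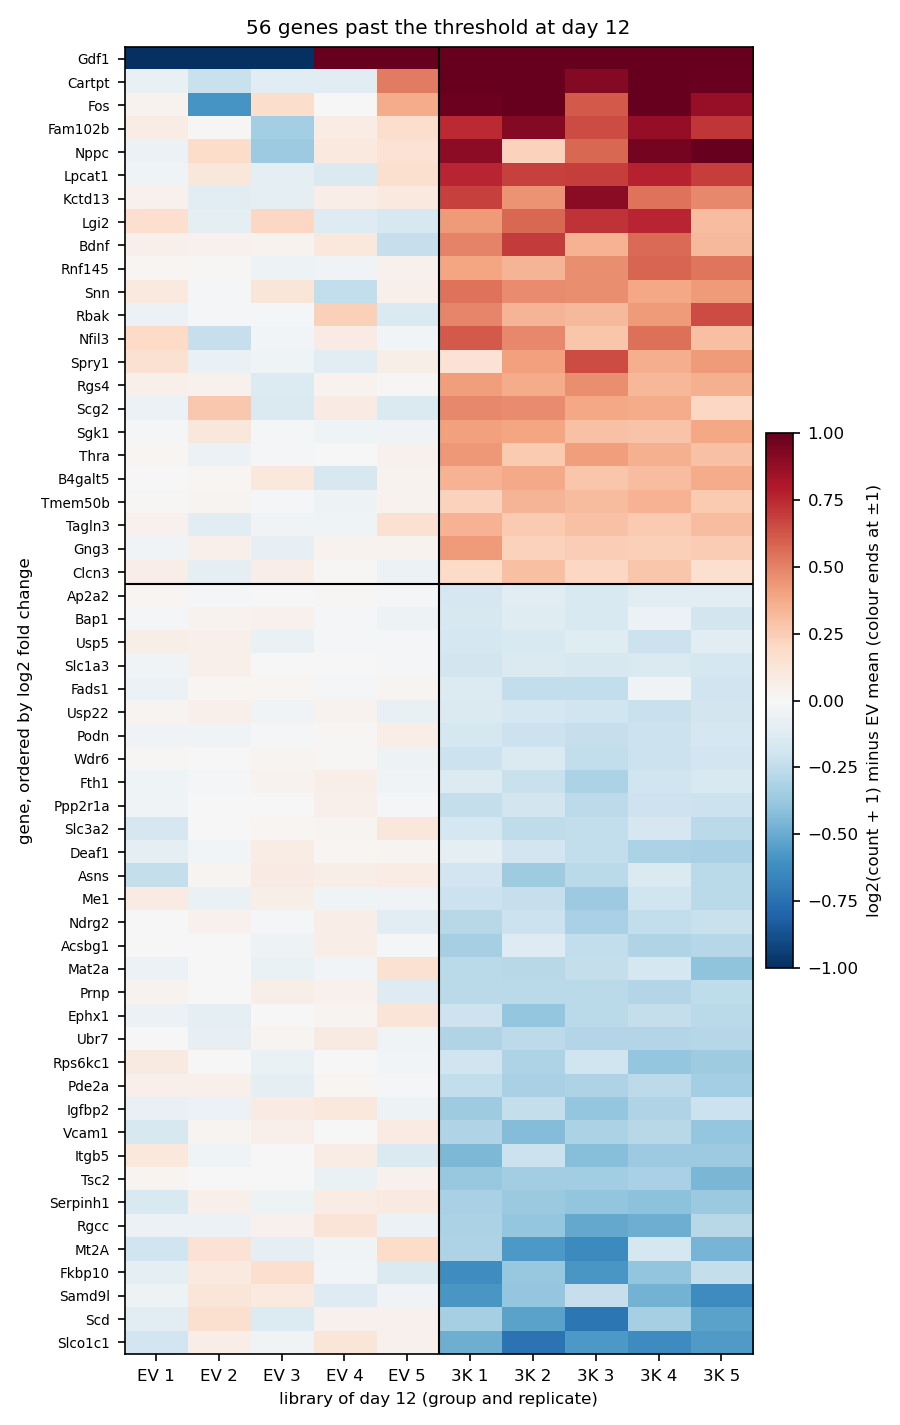
Each of the 56 genes past the threshold (rows, ordered by log2 fold change) in the 5 EV and 5 αSyn 3K libraries of day 12 (columns), as log2 of the normalized count plus 1 minus the EV mean. The colour scale ends at ±1; the 23 genes above the horizontal line are red across the 5 αSyn 3K columns and the 33 below it are blue, with Spry1, Scg2, Deaf1, Fads1, Asns, Slc3a2, Mt2A and Gdf1 overlapping between groups.

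Of the genes that neurons induce on activity, Fos, Bdnf, Nfil3 and Scg2 rose. Fos, the immediate early component of AP-1, had normalized counts of 61.0, 39.1, 67.4, 59.6 and 77.2 in the EV libraries and 118, 129.8, 91.3, 120.2 and 109 in the αSyn 3K libraries. The lowest αSyn 3K library lay above the highest EV library, and the means were 60.9 ± 14 and 114 ± 14.5 (SD, n = 5). On the log2 scale the rise was 0.92 ± 0.15 (SE throughout, limma adjusted p = 0.00105). Bdnf, the neurotrophin that neurons release on activity, had 109, 109, 108, 114 and 89.6 in EV and 149, 172, 135, 157 and 132 in αSyn 3K, again without overlap, and rose by 0.49 ± 0.10 on the log2 scale (adjusted p = 0.00767). Nfil3, a bZIP repressor that is induced by activity and by several hormones, went from 95.4 ± 10.5 to 130.1 ± 13.6 (log2 fold change 0.44, adjusted p = 0.0138). Its 5 EV libraries had 109, 80.9, 93.2, 101 and 92.9 and its αSyn 3K libraries 146, 133, 115, 139.5 and 117. Its call was lost in 4 of the 10 fits that left out a library, with an adjusted p of up to 0.093 without EV replicate 2.

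Secretogranin II (Scg2), a granin of dense-core vesicles, had 301, 378, 283, 331 and 284 in EV and 439, 437, 409.7, 406 and 362 in αSyn 3K. EV replicate 2 lay above αSyn 3K replicate 5, and the log2 fold change of 0.38 ± 0.09 passed the threshold by a small margin (adjusted p = 0.0464). The call was lost in 8 of the 10 fits that left out a library (largest adjusted p 0.184, without EV replicate 3) and in edgeR. The peptide precursors Nppc and Cartpt also rose. Nppc, which encodes C-type natriuretic peptide, had 41.9, 49.6, 33.7, 46.6 and 48.1 in EV and 81.8, 51.3, 65.2, 85.5 and 87.7 in αSyn 3K. The groups did not overlap, though αSyn 3K replicate 2 was close to the EV range, and the log2 fold change was 0.73 ± 0.14 (adjusted p = 0.00777). Cartpt, the precursor of the CART peptides, was at a low level, 32.3 ± 7.71 in EV and 65.2 ± 3.02 in αSyn 3K, with a log2 fold change of 1.02 ± 0.18 (adjusted p = 0.00182) and no overlap.

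The activity-regulated list that contains Fos, Bdnf, Scg2 and Nfil3 had 45 members tested. Of these, 4 rose by limma, none fell, and 17 were higher against 1 lower at an unadjusted p under 0.05, where 3.73% of all genes tested were higher and 4.51% lower. Its median log2 fold change was 0.19, and 10 members were below 0. The list had 3 members called by edgeR and 7 by DESeq2. Members that missed the threshold in limma included the transcription factor Junb at 106 ± 16.9 and 152 ± 18.3 (log2 fold change 0.52, adjusted p = 0.0701), the antiproliferative gene Btg2 at 263 ± 11.4 and 317 ± 18.9 (0.27, adjusted p = 0.108) and the protocadherin Pcdh8 at 1047 ± 35.5 and 1218 ± 42.4 (0.22, adjusted p = 0.0513). In DESeq2 these 3 passed, with adjusted p of 0.0267, 0.0495 and 0.0144, and in edgeR they did not. In the list of neuropeptides, granins and processing enzymes, 2 of 23 members rose, Nppc and Scg2, and none fell, with 3 higher and 4 lower at an unadjusted p under 0.05. Called members were 1 in edgeR and 1 with no filter on low values. The apelin precursor Apln was at 60.7 ± 6.85 and 39.7 ± 13.2 (adjusted p = 0.19), gastrin-releasing peptide Grp at 109 ± 11.3 and 81.2 ± 5.44 (adjusted p = 0.222) and cholecystokinin Cck at 1203 ± 60.9 and 1065 ± 60.5 (adjusted p = 0.43).

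Of the genes that rose, 21 of 23 had a promoter in the RefSeq table (build GRCr8, the 250 bases before the annotated start). The cAMP response element TGACGTCA, a palindrome that reads the same on both strands and is known as the binding site of CREB-family factors, occurred in 3 of them, Clcn3, Scg2 and Cartpt, in none of the 29 promoters found for the 33 genes that fell, and in 3.04% of the 9383 promoters of genes tested. Its absence from the 29 promoters of genes that fell is close to what a share of 3.04% gives. The shorter stretch TGACG, the start of the element, occurred in 42.9% of the promoters of genes that rose. It occurred in 24.1% of those of genes that fell and in 29.0% of those of genes tested. A promoter for Fos was not found in the table. The 3 promoters are shown because they are the called genes that carry the full element, which is in capitals. Scg2's is chr9:88256867-88257116, on the minus strand, and the element starts 123 bases before the gene's start. Cartpt's is chr2:32991236-32991485, on the minus strand, with the element 142 bases before the start. Clcn3, the endosomal chloride-proton exchanger, has it at chr16:34137754-34138003, on the plus strand, with the element 63 bases before the start. A match describes these letters in this window and no binding was measured.
Scg2: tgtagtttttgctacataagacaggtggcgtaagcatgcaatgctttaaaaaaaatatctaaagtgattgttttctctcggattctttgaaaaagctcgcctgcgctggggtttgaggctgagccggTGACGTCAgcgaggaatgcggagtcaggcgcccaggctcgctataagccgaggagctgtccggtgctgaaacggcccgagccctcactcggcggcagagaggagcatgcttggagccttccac
Cartpt: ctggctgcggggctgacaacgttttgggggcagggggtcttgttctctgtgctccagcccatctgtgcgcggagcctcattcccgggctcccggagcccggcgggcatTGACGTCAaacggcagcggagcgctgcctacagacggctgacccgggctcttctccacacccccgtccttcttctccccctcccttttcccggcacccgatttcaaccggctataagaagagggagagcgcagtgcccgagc
Clcn3: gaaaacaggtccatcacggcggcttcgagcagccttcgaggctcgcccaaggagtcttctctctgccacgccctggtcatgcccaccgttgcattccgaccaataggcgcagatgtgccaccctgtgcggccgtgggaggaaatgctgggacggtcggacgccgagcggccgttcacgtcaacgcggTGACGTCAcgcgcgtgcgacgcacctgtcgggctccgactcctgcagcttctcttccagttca

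Rgs4 and Gng3, of G protein signalling, rose. Rgs4, which speeds GTP hydrolysis by Gi and Gq subunits and so shortens their signals, had 1344, 1339, 1179, 1334 and 1309.8 in EV and 1739, 1678, 1794, 1638 and 1665 in αSyn 3K. The means of 1301 ± 69.6 and 1703 ± 63.0 did not overlap in any library, and the log2 fold change was 0.39 ± 0.04 (adjusted p = 7.55e-07). In the family of RGS genes, Rgs4 was the 1 member of 14 tested that rose, none fell, and 4 were higher at an unadjusted p under 0.05. Rgs16 was at 11.1 ± 5.02 and 19.1 ± 3.57 (adjusted p = 0.208), Rgs10 at 86.1 ± 13.2 and 106 ± 7.15 (adjusted p = 0.248) and Rgs2 at 166 ± 6.57 and 197 ± 16.6 (adjusted p = 0.284). Gng3, a gamma subunit of neuronal G proteins, rose from 1405 ± 56 to 1706 ± 104 (log2 fold change 0.28, adjusted p = 0.00375).

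Lpcat1, Rnf145 and B4galt5, which act on different steps of membrane lipid metabolism, rose. Lpcat1, which re-acylates lysophosphatidylcholine and favours saturated acyl chains, had the smallest p-value of all genes. It had 448, 497, 429, 416 and 514 in EV and 779, 739.7, 741, 783 and 740.5 in αSyn 3K, a gap several times the spread within either group. The log2 fold change was 0.72 ± 0.05 (adjusted p = 1.26e-10). Lpcat1 was the 1 of 29 phospholipid acyltransferases and glycerolipid genes tested that rose, none fell, and the median of the list was -0.02. Choline kinase Chka was at 565 ± 34.3 and 503 ± 21.5 (adjusted p = 0.261), Lpcat4 at 225 ± 9.25 and 201 ± 17.7 (adjusted p = 0.585).

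Rnf145, an ER ubiquitin ligase that takes part in the turnover of HMG-CoA reductase and in the ubiquitination of SCAP, had 577, 573, 548, 556 and 587 in EV and 746, 719.5, 782, 851 and 825 in αSyn 3K. The groups did not overlap, and the log2 fold change was 0.46 ± 0.055 (adjusted p = 4.15e-06). It was the 1 of 22 members of the SREBP and sterol transport list that rose. None fell by limma. Srebf1 itself was at 2311 ± 314 and 1786 ± 243 (log2 fold change -0.37), with an adjusted p of 0.0546 by limma, 0.052 by edgeR and 0.0245 by DESeq2, which called 2 members of the list, and Apoe was at 27432 ± 1932 and 24066 ± 1122 (adjusted p = 0.177). B4galt5, which makes lactosylceramide, the base of most gangliosides, went from 227 ± 15.1 to 286 ± 8.80 (log2 fold change 0.34, adjusted p = 0.0085). Clcn3, whose promoter is shown above, went from 839 ± 41.1 to 984 ± 40.0 (0.23, adjusted p = 0.0126), and lost the call without αSyn 3K replicate 2 and without EV replicate 2 (largest adjusted p 0.0797).

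Fam102b, a gene with no well-described function, had 57.3, 54.8, 42.7, 57.4 and 61.6 in EV and 91.6, 104, 85.8, 101 and 89.9 in αSyn 3K. It rose by 0.78 ± 0.12 on the log2 scale (adjusted p = 0.000491), without overlap. Kctd13, an adaptor of the Cul3 ubiquitin ligase that targets RhoA, had 164, 148, 149, 167 and 170.2 in EV and 256, 217, 299, 233 and 223 in αSyn 3K (log2 fold change 0.61 ± 0.12, adjusted p = 0.00789). Lgi2, a secreted leucine-rich protein of the epilepsy-linked LGI family, had 123, 103, 126, 99.6 and 97.4 in EV and 147, 163, 180.4, 185 and 135 in αSyn 3K (0.56 ± 0.10, adjusted p = 0.00161). None of these 3 genes had overlapping groups. The small membrane protein stannin (Snn) went from 829 ± 80.7 to 1136 ± 46.0 (0.46, adjusted p = 3.47e-06) and the transmembrane protein Tmem50b from 1102 ± 27.5 to 1359 ± 47.1 (0.30, adjusted p = 1.94e-05).

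Among kinases and nuclear factors, Sgk1, a kinase that is induced by glucocorticoids, rose from 247 ± 11 to 315 ± 13.1 (log2 fold change 0.35, adjusted p = 0.0085). Thra, the thyroid hormone receptor that predominates in brain, had 1516, 1433, 1474, 1499.9 and 1540.4 in EV and 2016, 1786, 1989.7, 1907 and 1833 in αSyn 3K, a rise of 0.35 ± 0.05 on the log2 scale without overlap (adjusted p = 0.000342). Tagln3, a neuronal member of the actin-binding transgelin family, went from 448 ± 31.7 to 549 ± 13.7 (0.29, adjusted p = 0.00445). Spry1, a feedback inhibitor of receptor tyrosine kinase signalling, had 135, 116, 118, 113 and 126 in EV and 134, 161, 191, 156 and 163 in αSyn 3K. Its groups overlapped through αSyn 3K replicate 1, and its call (0.40, adjusted p = 0.0353) was lost in 7 of 10 fits that left out a library, with an adjusted p of up to 0.164 without αSyn 3K replicate 3. Rbak, a zinc finger protein that binds RB, went from 81.0 ± 8.49 to 111 ± 10.7 (0.45, adjusted p = 0.0428), a call lost in 9 of those fits (up to 0.156, without αSyn 3K replicate 5). With Bdnf and Spry1, 2 of 18 tested genes of the neurotrophin and MAPK feedback list rose and none fell (1 called with no filter on low values), and the ETS factor Etv5, another target of that pathway, was at 721 ± 61.7 and 641 ± 41.3 (adjusted p = 0.415).

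Gdf1, a ligand of the TGF-beta family, had the largest log2 fold change, 5.41 ± 1.10 (adjusted p = 0.0105), and its value is uncertain. It was 3.13 in edgeR and 3.04 in DESeq2, and the ratio of the group means was 8.24. Its normalized counts were 0, 0, 0, 174 and 54.9 in EV and 522, 41.3, 476, 655 and 195 in αSyn 3K, which overlap. RefSeq (GRCr8) gives Gdf1 and the ceramide synthase Cers1 the same span, chromosome 16, 19131271 to 19146480. The counts were made on the earlier build Rnor_6.0, and whether the exons of the pair coincide there was not checked. How the counter divided reads between the pair was not tested. Cers1 had 1167, 1220.0, 1268, 1114 and 1213 in EV and 738, 1259, 757, 599 and 1133 in αSyn 3K, lowest in the libraries where Gdf1 was highest. The sum of both was 1167 to 1289 in EV and 1233 to 1328 in αSyn 3K (exact permutation test, p = 0.294). edgeR and DESeq2 did not call Gdf1, and it lost the call without EV replicate 2 (adjusted p = 0.074) and without EV replicate 3.

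**Figure D3:**
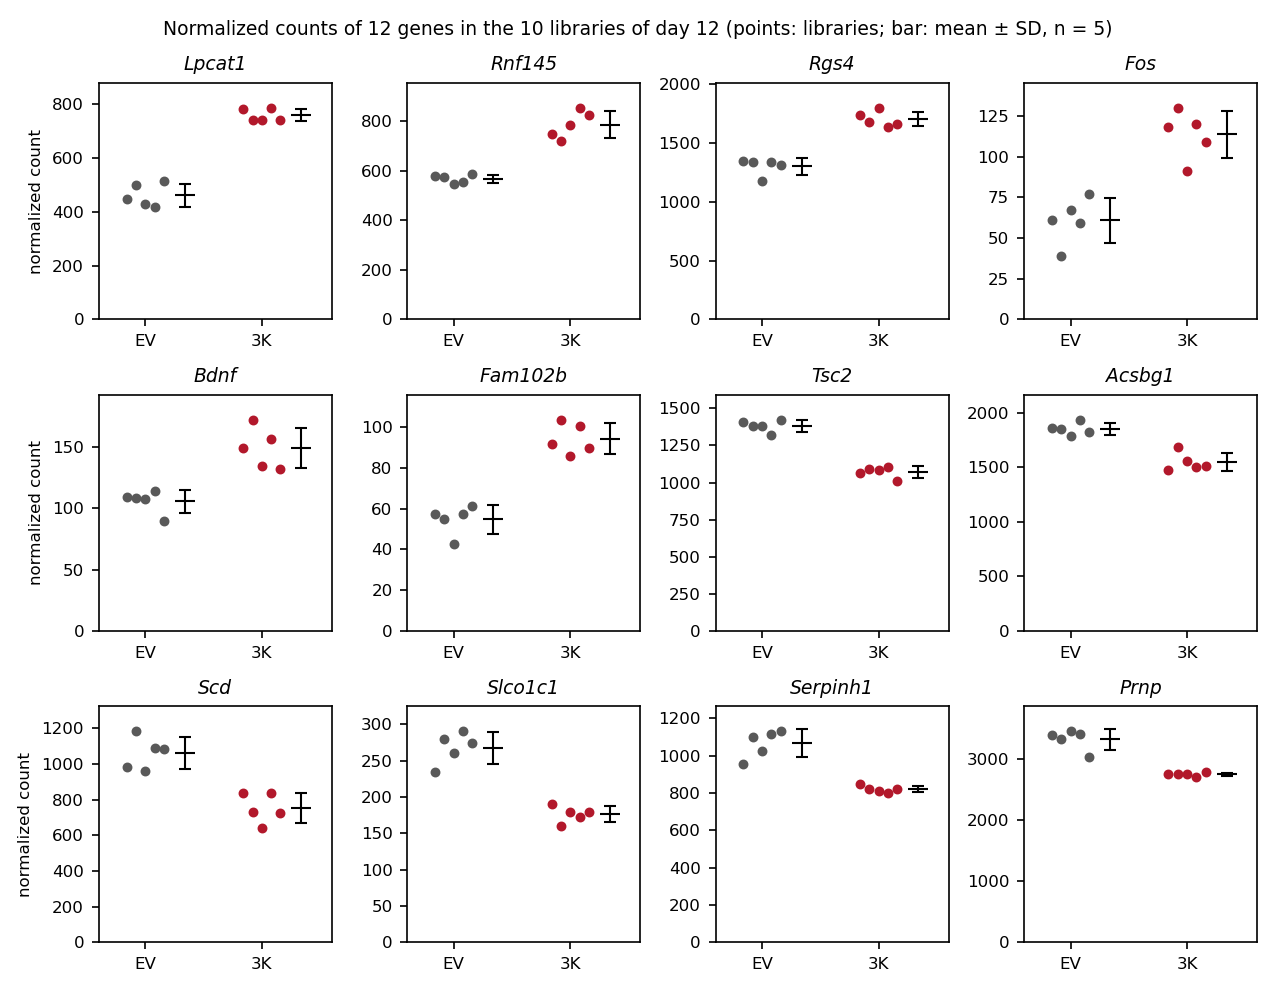
Normalized counts of 12 genes in the 10 libraries of day 12, with each point a library and the bar the mean ± SD (n = 5), on axes that start at 0. The 12 genes were picked from the 56 called genes, some of which overlap between groups. None of these 12 overlaps: Lpcat1, Rnf145, Rgs4, Fos, Bdnf and Fam102b are higher in αSyn 3K, and Tsc2, Acsbg1, Scd, Slco1c1, Serpinh1 and Prnp are lower. Over all genes tested, 1.05% had all αSyn 3K libraries above all EV libraries and 1.57% had them all below.

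Slco1c1, Acsbg1, Slc1a3 and Ndrg2, which are known for astrocytes, fell. Slco1c1, a thyroxine transporter of astrocytes and brain endothelium, had 234, 279, 260.5, 290.2 and 274 in EV and 190.4, 160.0, 179, 172 and 179.7 in αSyn 3K. No αSyn 3K library reached the lowest EV library, and it had the largest fall of all called genes, -0.60 ± 0.11 on the log2 scale (adjusted p = 0.00362). Acsbg1, an acyl-CoA synthetase that is enriched in astrocytes, had 1856, 1853, 1783, 1934 and 1820.2 in EV and 1472, 1688, 1558, 1499.9 and 1516 in αSyn 3K (-0.26 ± 0.04, adjusted p = 6.88e-05), also without overlap. Slc1a3, the glutamate transporter GLAST, had 8066, 8542, 8265, 8281 and 8193 in EV and 7297, 7470.0, 7385, 7470.0 and 7326 in αSyn 3K. The separation was complete but the step was small (-0.16 ± 0.04, adjusted p = 0.0275), and the call was lost in 7 of 10 fits that left out a library (up to 0.104, without EV replicate 2). Ndrg2, which is also highest in astrocytes in brain, went from 2604 ± 114 to 2178 ± 66.4 (-0.26, adjusted p = 0.0291), and lost the call in 9 of those fits (up to 0.105, without αSyn 3K replicate 3).

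In the whole astrocyte marker list, 3 of 27 members tested fell by limma, none rose, 11 were lower at an unadjusted p under 0.05, and 22 were below 0, where 49.1% of all genes were. The median log2 fold change was -0.12. Called members were 4 in edgeR and 6 in DESeq2. S100b was at 2359 ± 76.0 and 1993 ± 41.7 (adjusted p = 0.0513 by limma, 0.0438 by edgeR and 0.00399 by DESeq2), the glycolytic enzyme Aldoc at 2773 ± 147 and 2362 ± 112 (0.0621 by limma and 0.00977 by DESeq2) and the receptor Fgfr3 at 511 ± 35.6 and 434 ± 23.3 (0.203 by limma and 0.0682 by DESeq2). The summed normalized count of the list was 71554 to 75400 in EV and 66567 to 69524 in αSyn 3K. Without the 3 members that passed, it was 61245 to 64895 and 57444 to 60206, a mean difference of -5.87%. In bulk RNA, fewer cells of a type and less RNA per cell cannot be told apart. This lower astrocyte level had the same direction as the falls described in the following paragraphs, and its part in them was not tested. The 20 pan-neuronal genes had no call by limma, edgeR or DESeq2 and a median of -0.03. Of these, 15 were below 0, and 3 were lower and 0 higher at an unadjusted p under 0.05. Their sums, given above, ranged lower in αSyn 3K and overlapped with EV. The neuronal SNARE protein Snap25 was at 2027 ± 62.1 and 1823 ± 98.5 (adjusted p = 0.383).

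Scd, Fads1 and Me1, of fatty acid synthesis and desaturation, fell. Scd, the stearoyl-CoA desaturase, had 980.0, 1182, 959, 1088 and 1085 in EV and 836, 729, 639, 839 and 726 in αSyn 3K. The groups did not overlap, and the log2 fold change was -0.49 ± 0.11 (adjusted p = 0.0289). The call was lost in 6 of 10 fits that left out a library, without replicate 2, 3 or 5 of αSyn 3K and without replicate 2, 4 or 5 of EV, with an adjusted p of up to 0.125 and a log2 fold change between -0.53 and -0.43. Its more abundant paralog Scd2 was at 35896 ± 1127 and 32759 ± 1147 (-0.13, adjusted p = 0.213), with αSyn 3K replicate 4, at 34778, inside the EV range. Fads1, which introduces double bonds into polyunsaturated fatty acids, had 2325, 2453, 2448, 2397 and 2471 in EV and 2197, 2041, 2043, 2356 and 2107 in αSyn 3K. One αSyn 3K library, replicate 4, lay above the lowest EV library (-0.17 ± 0.04, adjusted p = 0.0332). Me1, the cytosolic malic enzyme and a source of the NADPH that lipid synthesis consumes, had 1071, 966, 1055, 979 and 987 in EV and 869, 863, 787, 882 and 840.1 in αSyn 3K, without overlap (-0.25 ± 0.06, adjusted p = 0.0332). Fads1 and Me1 each lost the call in 7 of the fits that left out a library, with an adjusted p of up to 0.138 without αSyn 3K replicate 2 and 0.133 without αSyn 3K replicate 3.

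These were 3 of the 26 members tested of the fatty acid synthesis list. None rose, 7 were lower at an unadjusted p under 0.05, 20 were below 0, and the median was -0.06. With libraries scaled to equal totals or with the replicate number as a block, 1 of these members was called, with no filter on low values 0 were, and with DESeq2 5 were. The elongase Elovl2 was at 1970.2 ± 90.0 and 1758 ± 63.1 (adjusted p = 0.0513 by limma and 0.0106 by DESeq2) and the dehydratase Hacd3 at 2746 ± 35.3 and 2507 ± 94.2 (0.104 and 0.0401). Of 14 acyl-CoA synthetases, Acsbg1 fell and none rose, with Acsl6 at 648 ± 33.4 and 578 ± 31.1 (adjusted p = 0.241). None of the 22 cholesterol synthesis genes was called by limma (1 higher and 3 lower at an unadjusted p under 0.05, and 0 called by edgeR or DESeq2), with Hmgcs1 at 8180.5 ± 229 and 7600.3 ± 81.3 (adjusted p = 0.489). Of 23 genes of fatty acid oxidation and lipid droplets, none was called by limma, edgeR or DESeq2, and 1 was higher and 5 lower at an unadjusted p under 0.05, the triglyceride lipase Pnpla2 among them at 171 ± 9.67 and 142 ± 10.5 (adjusted p = 0.177).

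Slc3a2, Asns and Mat2a, of amino acid supply and use, fell. Slc3a2, the heavy chain shared by several amino acid exchangers, had 2844, 3211, 3252, 3268 and 3474 in EV and 2834, 2691, 2705, 2857 and 2652 in αSyn 3K. EV replicate 1 lay within the αSyn 3K range, and the log2 fold change was -0.22 ± 0.04 (adjusted p = 0.00308). Asparagine synthetase (Asns) had 868, 1043, 1082, 1068 and 1079 in EV and 897, 802, 849.8, 928 and 849 in αSyn 3K, with EV replicate 1 again among the αSyn 3K values (-0.25 ± 0.06, adjusted p = 0.0291), and lost the call in 7 of 10 fits that left out a library (up to 0.118, without EV replicate 3). Mat2a, which makes S-adenosylmethionine from methionine, went from 1727 ± 112 to 1430.3 ± 79.8 (-0.27, adjusted p = 0.0179, lost in 4 of those fits, up to 0.0839 without αSyn 3K replicate 5). In the list of ATF4 targets, serine synthesis genes and tRNA synthetases, 2 of 41 fell by limma, none rose, 16 were lower and none higher at an unadjusted p under 0.05, 36 were below 0, and the median was -0.11. Called members were 4 in DESeq2, 2 in edgeR and 1 with no filter on low values. The cystine transporter Slc7a11 was at 471 ± 95.7 and 324 ± 65.7 (adjusted p = 0.062 by limma and 0.0382 by DESeq2), the asparaginyl-tRNA synthetase Nars at 2436 ± 97.7 and 2216 ± 51.8 (0.0824 and 0.0267) and the serine synthesis enzyme Psat1 at 1526 ± 122 and 1309 ± 85.8 (-0.22, 0.192 by limma and 0.0773 by DESeq2).

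Fth1 and Mt2A, which bind iron and other metals, and the detoxification enzyme Ephx1 fell. The ferritin heavy chain Fth1 had 20962, 21308, 22189, 22652 and 21151 in EV and 19633, 18521, 17414, 18850.1 and 19505 in αSyn 3K, without overlap (-0.21 ± 0.04, adjusted p = 0.0119; up to 0.0738 without αSyn 3K replicate 3, and also lost without EV replicate 4). The metallothionein Mt2A had 453, 575, 486, 509 and 591 in EV and 419.9, 349, 335, 460.3 and 376 in αSyn 3K, where αSyn 3K replicate 4 lay above EV replicate 1 (-0.43 ± 0.09, adjusted p = 0.0179). It lost the call in 5 of the fits that left out a library, with an adjusted p of up to 0.0932 without EV replicate 2. The microsomal epoxide hydrolase Ephx1 went from 1319 ± 79.9 to 1089 ± 49.5 (-0.27, adjusted p = 0.00795). In the NRF2, glutathione and iron list, 2 of 28 fell by limma, none rose, 8 were lower at an unadjusted p under 0.05, and the median was -0.08. Gclc, the catalytic subunit of glutamate-cysteine ligase, was at 837 ± 54.7 and 692 ± 66.1 (adjusted p = 0.0605 by limma and 0.0141 by DESeq2). DESeq2 called 4 members, edgeR 2, and limma with no filter on low values 1. None of 37 genes of glycolysis and the TCA cycle was called by limma, while 33 were below 0 and 13 were lower at an unadjusted p under 0.05, with Eno1 at 11879.8 ± 408 and 11116 ± 184 (adjusted p = 0.177 by limma and 0.0488 by DESeq2). DESeq2 called 2 members of that list and edgeR 0.

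Of genes of collagen folding, matrix and adhesion, Serpinh1, Fkbp10, Itgb5, Vcam1 and Podn fell. Serpinh1, the ER chaperone of procollagen, had 956, 1102, 1027, 1119 and 1131 in EV and 849.5, 822, 811, 802 and 823 in αSyn 3K (-0.37 ± 0.05, adjusted p = 4.48e-05). The αSyn 3K libraries were close together and all below EV. Fkbp10, a prolyl isomerase of the same compartment that acts on collagen, had 120.1, 138, 145, 127 and 116 in EV and 83.6, 98.6, 85.8, 97.8 and 109 in αSyn 3K, also without overlap (-0.44 ± 0.10, adjusted p = 0.0332), and lost the call in 7 of 10 fits that left out a library (up to 0.151, without EV replicate 3). Integrin beta 5 (Itgb5), a vitronectin receptor subunit, had 723, 651, 675, 708 and 608 in EV and 491, 578, 499.9, 523 and 522 in αSyn 3K (-0.36 ± 0.06, adjusted p = 0.000491). Vcam1, an adhesion molecule, had 721, 823, 834, 806 and 855 in EV and 653, 598, 648, 664 and 616 in αSyn 3K (-0.34 ± 0.07, adjusted p = 0.0105; 0.0518 without αSyn 3K replicate 2). Neither gene overlapped between groups. Podocan (Podn), a matrix proteoglycan, went from 1754 ± 51.9 to 1525 ± 29.2 (-0.20, adjusted p = 0.0114), and Igfbp2, a secreted binder of insulin-like growth factors, from 2404 ± 148 to 1955 ± 99.1 (-0.30, adjusted p = 0.00105).

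The matrix list as a whole did not share this direction. Of its 31 members tested, Itgb5 fell, none rose, 13 were below 0, and the median was 0.01. The proteoglycan aggrecan (Acan), a component of perineuronal nets, was at 23.9 ± 6.35 and 40.5 ± 5.00 (0.76, adjusted p = 0.0546) and nidogen (Nid1) at 448 ± 49.6 and 557 ± 72.6 (0.31, adjusted p = 0.212). In the list of reactive glia and inflammation, Vcam1 was the 1 of 16 tested that fell, none rose, and the median was 0.10. At an unadjusted p under 0.05, 1 member was higher and 3 were lower. The higher one was Tnc, also in the matrix list, at 299 ± 103 and 433 ± 70.7 (0.57, limma adjusted p = 0.219).

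Tsc2, Ppp2r1a, Rps6kc1, Pde2a and Rgcc, of growth signalling, phosphatases and phosphodiesterases, fell. Tsc2, the GTPase-activating subunit of the tuberous sclerosis complex that restrains mTORC1, had 1409, 1383, 1382, 1319 and 1423 in EV and 1065, 1089, 1084, 1107 and 1009 in αSyn 3K. The gap between the groups was larger than the range within either, and the log2 fold change was -0.37 ± 0.04 (adjusted p = 3.47e-06). Ppp2r1a, the scaffold subunit of protein phosphatase PP2A, had 6805, 6990.4, 6948, 7212 and 6882 in EV and 5919, 6129, 5795, 6049.5 and 6014 in αSyn 3K, without overlap (-0.22 ± 0.03, adjusted p = 6.88e-05). Rps6kc1, a kinase-like protein with a PX domain, went from 486 ± 19.6 to 398 ± 24.1 (-0.29, adjusted p = 0.00417). Pde2a, a phosphodiesterase that degrades cAMP and cGMP, went from 2575 ± 111 to 2098 ± 58.6 (-0.29, adjusted p = 0.00953). Rgcc, a regulator of cell cycle kinases, had 719, 720.0, 775, 821 and 721 in EV and 602, 575, 526, 536 and 617 in αSyn 3K (-0.40 ± 0.07, adjusted p = 0.00204), without overlap.

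The prion protein gene Prnp fell from 3330.1 ± 169 to 2756 ± 27.9 (-0.27, adjusted p = 0.000491), and its 5 αSyn 3K libraries lay between 2711 and 2787, a narrow range below every EV library. The clathrin adaptor subunit Ap2a2 went from 4147 ± 41.0 to 3783 ± 70.9 (-0.13, adjusted p = 0.0464), the smallest change among the genes called, and lost the call in every one of the 10 fits that left out a library (0.0614 to 0.132). Samd9l, an interferon-inducible gene, had 257, 289.6, 285, 244 and 259.7 in EV and 178, 203, 227, 191 and 172 in αSyn 3K (-0.46 ± 0.10, adjusted p = 0.0253), without overlap, and lost the call in 5 of those fits (up to 0.0987, without EV replicate 2). It was the 1 of 23 interferon response genes tested that fell, none rose, and 1 was higher and 1 lower at an unadjusted p under 0.05. The higher one was Irf9, at 21.4 ± 5.31 and 28.4 ± 5.31 (0.41, limma adjusted p = 0.606). The median log2 fold change of the interferon list was -0.13, and 15 of the 23 were below 0.

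Ubiquitin enzymes and nuclear regulators made up the rest. The deubiquitinases Usp22, of the SAGA coactivator complex, Usp5, which disassembles free ubiquitin chains, and Bap1, which acts on histone H2A, went from 3084 ± 115 to 2713 ± 54.5, from 2101 ± 76.1 to 1887 ± 57.4 and from 2635 ± 70.1 to 2398 ± 81.6. Their log2 fold changes were -0.18, -0.15 and -0.14, with adjusted p of 0.0329, 0.0291 and 0.0228. Leaving out 1 library lost these calls in 8, 6 and 6 of 10 fits, with the largest adjusted p at 0.111 without EV replicate 2, 0.11 without EV replicate 2 and 0.103 without EV replicate 3. The ubiquitin ligase Ubr7 went from 531 ± 24.2 to 435 ± 4.21 (-0.29, adjusted p = 0.00377) and Wdr6, a WD-repeat protein that takes part in tRNA methylation, from 4182 ± 88.8 to 3635 ± 93.3 (-0.20, adjusted p = 0.00245). The transcription factor Deaf1 had overlapping groups, 748 ± 33.4 and 637 ± 43.2 (-0.23, adjusted p = 0.0469), and lost the call in 8 of the 10 fits (up to 0.183, without EV replicate 3).

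**Figure D4:**
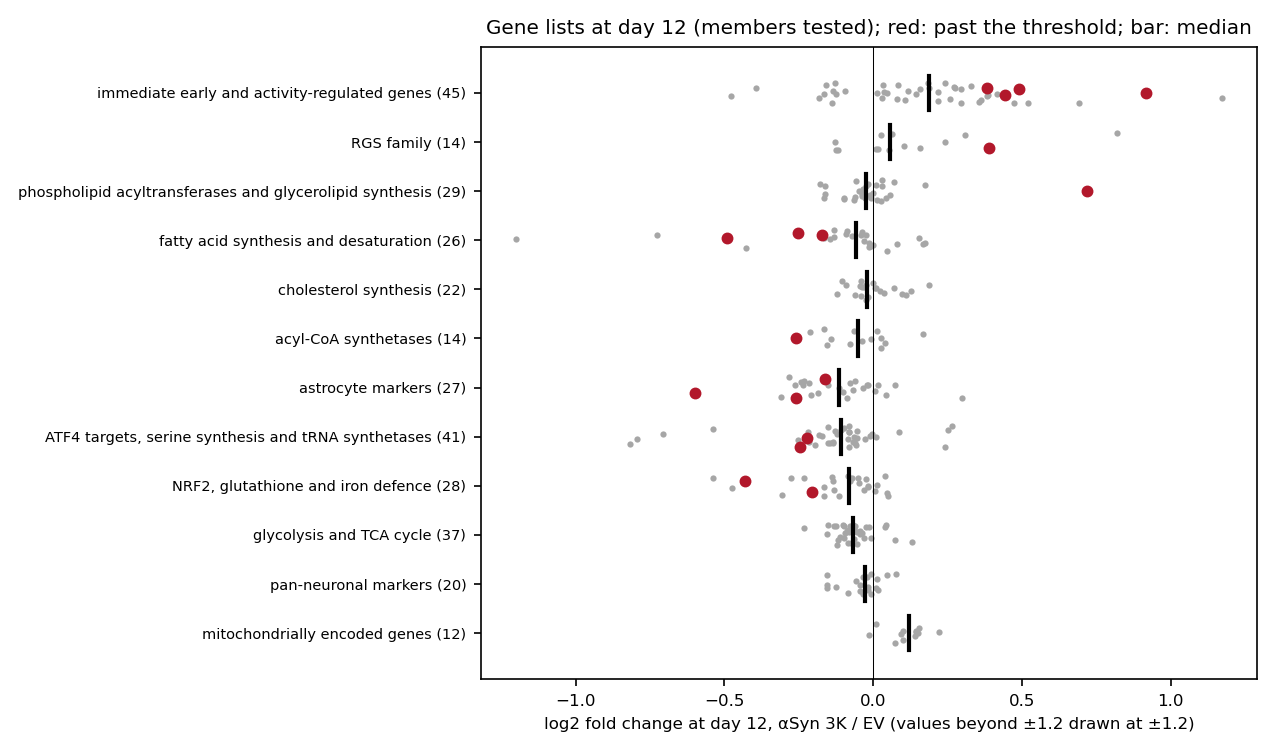
Log2 fold change of αSyn 3K over EV at day 12 (horizontal axis) for the members tested of 12 gene lists (rows, number of members in brackets); red points passed the threshold and the black bar is the list median. The activity-regulated list lies to the right with a median of 0.19 and 4 red members, and the astrocyte and ATF4 lists lie to the left with medians of -0.12 and -0.11. The mitochondrially encoded list also lies to the right, with a median of 0.12 and 0 red members.

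Other lists held no called gene by limma. These were the lists of postsynaptic receptors and scaffolds (38 tested, median 0.01), synaptic vesicle and release genes (36, -0.04), voltage-gated channels (36, 0.04), Parkinson disease and lysosome genes (34, -0.02), glutamatergic markers (15, 0.06), GABAergic markers (18, -0.02), oligodendrocyte lineage markers (16, 0.13), ER chaperones and heat shock genes (30, -0.02) and p53 targets (21, -0.03). At an unadjusted p under 0.05, 5 synaptic vesicle genes were lower and none higher, 6 ER chaperone and heat shock genes were lower and 1 higher, and 0 oligodendrocyte markers were past it, though 15 of 16 were above 0. Summed normalized counts of the ER chaperone list were 45567 to 46858 in EV and 44384 to 45410.5 in αSyn 3K, without overlap. Those of the GABAergic list were 9625.75 to 10005.5 in EV and 9301.85 to 9615.87 in αSyn 3K, also without overlap. Of its members, 1 was higher and 3 were lower at an unadjusted p under 0.05. Among the synaptic vesicle genes, Sv2b was at 2575 ± 167 and 2249.9 ± 103 (adjusted p = 0.068 by limma and 0.0169 by DESeq2). DESeq2 called 1 synaptic vesicle gene, 1 GABAergic marker and 1 p53 target, and edgeR called 0 in each of these 9 lists. No gene was called by limma, edgeR or DESeq2 among neural progenitor and cell cycle genes (26 tested, median 0.02, 0 at an unadjusted p under 0.05), immature neuron and axon growth genes (19, -0.02, with 2 lower at an unadjusted p under 0.05), GABA and glycine receptors (17, -0.01, with 1 higher and 2 lower), endothelial, mural and fibroblast markers (6, 0.19, with 1 higher and 1 lower) and microglial markers (2, -0.03, with 1 lower). The 12 mitochondrially encoded genes had a median of 0.12, and 11 of them were above 0. Of 13 genes of thyroid hormone action, Thra rose and Slco1c1 fell, with the thyroid hormone-binding protein Crym at 579.8 ± 45.9 and 659 ± 11.8 (adjusted p = 0.526). Of the 10 genes in the main table of the study, which was chosen on these samples and is no independent evidence of direction, 5 rose (Lpcat1, Rnf145, Rgs4, Fam102b and Snn), 3 fell (Scd, Acsbg1 and Rgcc), and Pcdh8 and Psat1 did not pass in limma or edgeR. DESeq2 called 9 of the 10, Pcdh8 among them.

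The libraries of days 6 and 19 share no sample with those of day 12, so log2 fold changes at those days come from other libraries. The calls are not a separate reading of the 56 genes. The fit pooled the spread of each gene over all 30 libraries, and that spread also entered the choice of the 56. At day 6, 29 genes were called over all genes tested, 0.139% higher and 0.0852% lower. Of the 23 genes that rose at day 12, 21 had a positive log2 fold change at day 6 and 5 were called, Lpcat1, Rnf145, Rgs4, Bdnf and Thra. Of the 33 that fell, 31 had a negative value and 4 were called, Acsbg1, Asns, Me1 and Itgb5. Over all genes, 49.1% were higher and 50.9% lower at day 6. The median log2 fold change at day 6 was 0.21 for the genes that rose and -0.13 for those that fell. Direct tests of the difference between the effects at day 12 and day 6 called 0 of 12911 genes with limma, 0 with edgeR and 4 with DESeq2, with 4.93% of all genes at an unadjusted p under 0.05. Among the 56 genes, 12 of those that rose and 17 of those that fell were at an unadjusted p under 0.05 in this test, but these genes were chosen on the day 12 values that enter it.

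At day 19, 488 genes were called higher and 527 lower, 3.78% and 4.08% of all genes tested. Of the day 12 genes, 18 of 23 were called higher again and 23 of 33 lower again, and none was called in the opposite direction. The median log2 fold change at day 19 was 0.65 for the genes that rose at day 12 and -0.27 for those that fell. Thra, Tagln3, Spry1, Rbak and Gdf1 were not called at day 19 among the first group, nor Slc1a3, Slc3a2, Mat2a, Asns, Mt2A, Itgb5, Deaf1, Ubr7, Samd9l and Fkbp10 among the second. Scd had the largest fall at day 19 among the 33, -1.03 on the log2 scale (adjusted p = 8.0e-08).

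When the effects of days 19 and 12 were tested against each other, 70 genes passed, 0.333% of all genes tested in the higher and 0.209% in the lower direction. They included 8 of the 56, with the reservation that the 56 were chosen on the day 12 values. The effect was larger at day 19 for Lpcat1 (1.22 against 0.72, a difference of 0.51 on the log2 scale, adjusted p = 0.00032), Rnf145 (0.88 against 0.46, adjusted p = 0.008), Bdnf (1.07 against 0.49, adjusted p = 0.04), Tmem50b (0.61 against 0.30, adjusted p = 0.0046) and Rgs4 (0.69 against 0.39, adjusted p = 0.0083). The fall of Pde2a was also larger, -0.69 against -0.29 (adjusted p = 0.024). Ubr7, by contrast, was at -0.29 at day 12 and 0.03 at day 19 (adjusted p = 0.046). Gdf1 differed as well (adjusted p = 0.021), with the uncertainty given above. The number of genes in this test fell to 32 without EV replicate 3 of day 12, 37 without EV replicate 1, 39 without αSyn 3K replicate 4, 42 without αSyn 3K replicate 3 and 43 without EV replicate 4.

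**Figure D5:**
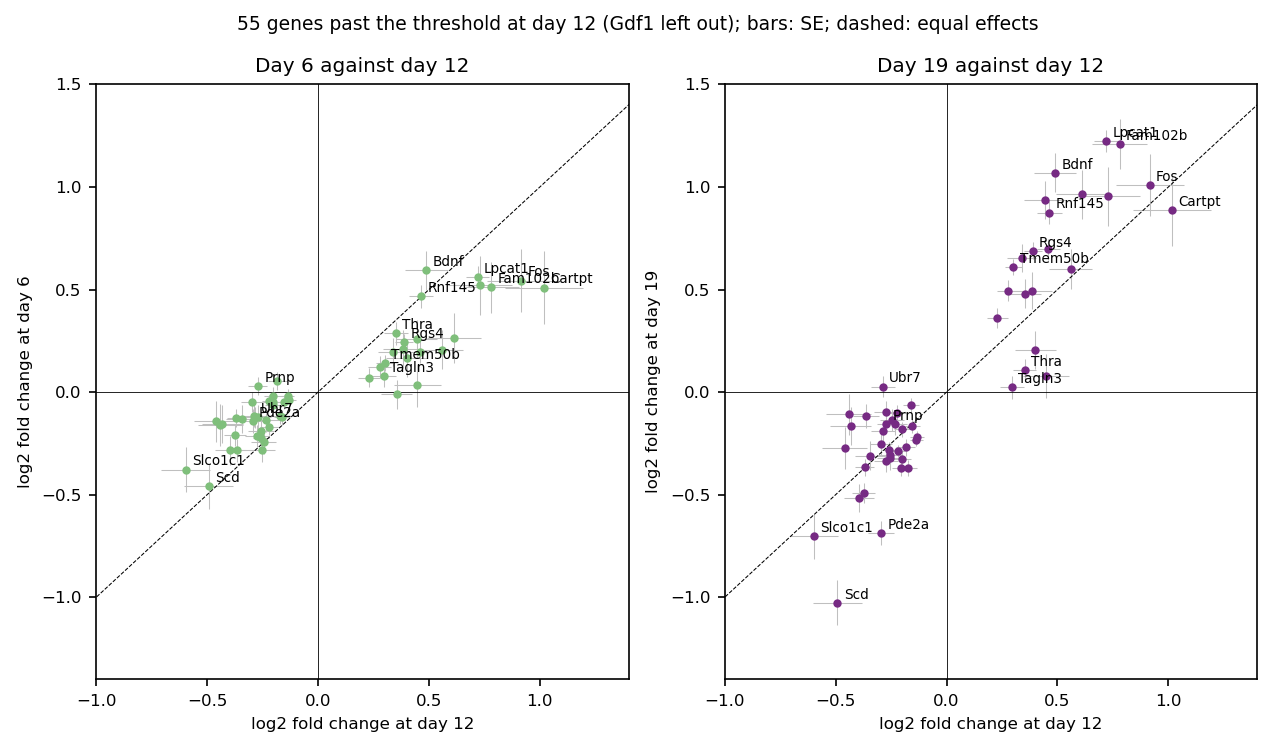
Log2 fold change of αSyn 3K over EV for 55 genes called at day 12 (Gdf1 left out), at day 12 (horizontal axes) against day 6 (left panel) and day 19 (right panel), with SE bars and a dashed line of equal effects. At day 6 most points lie nearer to 0 than the line, and at day 19 Lpcat1, Rnf145, Bdnf, Rgs4, Tmem50b and Pde2a lie farther from 0 than the line.

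The EV cultures of days 6 and 19 give the change of the same genes with time in culture. Their means share no library with those of day 12, though the spread of each gene was pooled over all 30 libraries. From day 6 to day 19 in EV, 32.9% of all genes tested rose and 32.2% fell. Of the 33 genes lower in αSyn 3K at day 12, 23 rose in EV over this time and 6 fell (69.7% and 18.2%), with a median log2 change of 0.87. Slco1c1 rose by 2.56, Mt2A by 2.36, Acsbg1 by 1.87 and Ephx1 by 1.81, while Scd was among the 6 that fell, with a change of -2.63. Of the 23 genes higher in αSyn 3K, 6 rose and 14 fell in EV (26.1% and 60.9%), with a median of -0.25. Lgi2 changed by -2.13, Nfil3 by -1.74, Fam102b by -1.27 and Lpcat1 by -1.03, while Fos changed by 2.71 and Bdnf by 1.41. In the astrocyte marker list, 23 of 27 rose in EV from day 6 to day 19 and 2 fell. The called genes have smaller errors than most genes (median SE at day 12 of 0.06 against 0.10 over all genes tested), which by itself raises the share called in any contrast. How far this moved these shares was not tested.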

How the data were processed

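RNA of rat cortical neuron cultures (30 libraries, 5 per vector and day) was amplified with a full-length cDNA kit that does not mark strand, so reads of overlapping genes on opposite strands cannot be told apart. The submitters' processing notes name FastQC, STAR 2.5.2b, RSEM 1.2.31, DESeq2 and the build Rnor_6.0. The authors deposited a signal table of gene counts from RSEM divided by 1 size factor per library, with 32883 genes. The values were whole multiples of 1 library-specific step, within 0.01, for 100% of values in each library, so whole reads were recovered.

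Genes that reached a normalized count of 10 in 5 or more libraries entered limma 3.58.1 (R 4.3.3; empirical Bayes with trend) on log2 of the normalized count plus a pseudocount of 1, as 6 group means over all 30 libraries, with Benjamini-Hochberg adjustment over all 12911 genes and a two-sided threshold of 0.05. Fold changes of low genes on this scale depend on the pseudocount, and that of Gdf1, with libraries at 0, is larger than in edgeR or DESeq2. Single values were tested with exact permutation of 5 against 5 libraries. The main fit was also run on counts simulated with known changes, drawn independently for each library and scaled by their known depth. Such data cannot test the normalization or replicates that are technical, and no conclusion is drawn from them here. Alternatives were edgeR 4.0.16 and DESeq2 1.42.0 on recovered reads, pseudocounts of 0.5 and 5, no filter or a minimum of 50, equal totals and equal upper quartiles. Others were a replicate block, the share of reads on all mitochondrial sequences as a covariate, only the day 12 libraries, and leaving out each day 12 library.

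All called genes are named. The values in each of the 10 libraries are given for the 8 largest rises and 8 largest falls among called genes without overlap and with a mean of at least 50, for called list members where their list is described, and for some further genes chosen after their values were seen. Of each list described, up to 3 members that missed the threshold are named, those with the smallest p. The 10 genes of the study's main table and Scd2 are named whatever their values, and 1 further gene is not reported here. In the 35 gene lists, 17 names were not matched. The members and lists were chosen with earlier results of these data known. Promoter sequences are from RefSeq (GRCr8), a later build than the files', and were matched by symbol. Tables were made with Python 3.11.15.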

Additional observations from a re-analysis of the deposited data

Results flagged for a closer look

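In 9 of 126 groups of 5 libraries checked, 1 library stood apart from the other 4 by more than 0.71 of the group's range, where chance alone gives about 1 in 20. In EV these were replicate 5 for Bdnf (89.6 against 108 to 114), Wdr6 (4028.9 against 4196 to 4259.9) and Cartpt (45.9 against 27.0 to 30.03), replicate 3 for Rgs4 (1179 against 1309.8 to 1344), replicate 1 for Asns (868 against 1043 to 1082) and replicate 2 for Sgk1 (266 against 239 to 245). In αSyn 3K they were replicate 4 for Scd2 (34778 against 31990.2 to 32517), replicate 1 for Gng3 (1890.3 against 1647 to 1675) and replicate 2 for Ubr7 (442 against 431 to 434).

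For 8 genes the αSyn 3K effect differed between days 19 and 12 in limma's test of the difference, given here as day 19 minus day 12 on the log2 scale. The values were 0.51 for Lpcat1, 0.41 for Rnf145, 0.58 for Bdnf, 0.31 for Tmem50b, 0.30 for Rgs4, -0.39 for Pde2a, 0.31 for Ubr7 and -7.36 for Gdf1. Gdf1 shares its annotated span with Cers1, and how reads were divided between them was not tested. All 8 were called at day 12, whose values enter the test.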

How the results depend on the processing

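The counts of 23 genes higher and 33 lower in αSyn 3K at day 12 stayed within 1.5 times under most alternatives. With only the day 12 libraries in the fit they were 35 and 71, of which 51 were among the 56, and with DESeq2 they were 32 and 63, of which 55 were. Leaving out 1 library gave 18 to 30 higher and 18 to 35 lower, with 18 lower without αSyn 3K replicate 2, 21 without αSyn 3K replicate 3 and 19 without EV replicate 2. The difference between the effects at days 12 and 6 had 0 genes by limma, 4 with DESeq2, and 0 to 1 without 1 library. The difference between days 19 and 12 had 70 genes, 108 with DESeq2, 29 with no filter on low values, and 32 to 55 without 1 library, lowest without EV replicate 3. The cause of these differences was not tested, except that leaving out a library leaves fewer samples and dropping the filter adds tests. All 56 called genes kept their direction under each alternative run. Called genes lost under single settings were 3 in edgeR (Ap2a2, Gdf1 and Scg2), 1 in DESeq2 (Gdf1) and 6 with equal totals, and 15 with no filter.

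Replicate numbers gave no sign of pairing at day 12: deviations of EV and αSyn 3K libraries with the same number correlated at -0.01, -0.03, -0.02, -0.10 and -0.12. Libraries with different numbers correlated at -0.16 to 0.13. The labels do not state a pairing, and correlations over all genes cannot exclude one. With the replicate number as a block, 29 genes were higher and 36 lower at day 12, the difference between days 12 and 6 had 1 gene and that between days 19 and 12 had 66. Of the 56 genes, 50 were called with the block.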
